A study of Mus musculus with 6 samples.

Results

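The genes described here are Pyy and 8 other genes that mark hormone-secreting cells of the gut: Gcg, Gast, Sst, Ghrl, Chga, Chgb, Neurod1 and Neurog3. The set holds every probe that the array's annotation pairs with these symbols, which is 12 of 25697 probes and 9 of the 16593 genes with a probe. Chga had 3 probes, Ghrl had 2 and each of the other 7 genes had 1. Pyy was selected on its signal difference between TGF-β1-treated and untreated cells, and the other genes were chosen with the signals of this same comparison known, so the values of all 9 are given as a description, with no test.

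Expression was measured in 3 cultures of GIF-14 cells given 2.5 ng/ml recombinant TGF-β1 for 24 h and in 3 untreated cultures, all without Runx3 and p53 (genotype Runx3-/-;p53-/-). GIF-14 is a line of fetal gastric epithelial cells from the mouse, and the study treated its pre-EMT fraction, the cells that still had an epithelial form. One line stands for the tissue, so the cultures of a group measure spread between cultures of that line and not between animals. RNA of each culture was labeled with biotin and hybridized to an Illumina MouseRef-8 version 2 BeadChip, which reports for each probe a signal intensity averaged over many beads.

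Enteroendocrine cells are scattered through the lining of the stomach and intestine and release peptide hormones and amines in response to food. They arise from epithelial progenitors that pass through a stage of Neurog3 expression, followed by other transcription factors such as Neurod1. Their hormones are made as larger precursors, cut by convertases and stored in dense-core granules with chromogranins. Peptide YY, the product of Pyy, comes mostly from L cells of the lower intestine, which also make the proglucagon peptides of Gcg, and it slows gastric emptying and lowers appetite.

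Between 11381 and 11797 probes per array (44.3% to 45.9%) had a detection p under 0.05, the level at which a probe is called above background here. The detection p sets the signal of a probe against negative control beads of the same array and came in steps of 1/798, so that a p listed as 0 lies below the smallest step. A gene was tested if a probe of it was above background on all 3 arrays of at least 1 group. Of the genes with a probe, 7438 (44.8%) were above background on no array. The mean signal was between 406 and 519 on the TGF-β1 arrays and between 435 and 519 on the untreated arrays, and arrays of 1 group correlated with r of 0.988 to 0.996 over all probes, against 0.967 to 0.976 between groups. Changes are given as log2 differences after quantile normalization, TGF-β1-treated minus untreated.

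The promoter windows of Pyy, of its neighbour and family member Ppy, and of the other L-cell hormone gene, Gcg, are shown to let the start regions of a gene seen only after TGF-β1 and of genes not seen at all be read side by side. The sequences are from RefSeq (GRCm38.p6), run 5′ to 3′ on the strand of the gene, and span 250 bases before to 50 bases after an annotated start. Capitals mark every match, on either strand, to CAGAC (the core that Smad proteins bind), GTCTAGAC (its palindrome), CANNTG (the E-box of helix-loop-helix factors such as Neurod1 and Neurog3), TGACTCA (the AP-1 site) and TATAAA (the TATA box).
Pyy, chr11:102107783-102108082, minus strand: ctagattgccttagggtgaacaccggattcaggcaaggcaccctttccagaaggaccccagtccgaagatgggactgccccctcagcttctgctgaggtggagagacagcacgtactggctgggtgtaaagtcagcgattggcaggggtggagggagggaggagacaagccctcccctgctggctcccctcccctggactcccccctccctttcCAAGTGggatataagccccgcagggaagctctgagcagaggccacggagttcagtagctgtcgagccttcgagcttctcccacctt
Ppy, chr11:102101270-102101569, minus strand: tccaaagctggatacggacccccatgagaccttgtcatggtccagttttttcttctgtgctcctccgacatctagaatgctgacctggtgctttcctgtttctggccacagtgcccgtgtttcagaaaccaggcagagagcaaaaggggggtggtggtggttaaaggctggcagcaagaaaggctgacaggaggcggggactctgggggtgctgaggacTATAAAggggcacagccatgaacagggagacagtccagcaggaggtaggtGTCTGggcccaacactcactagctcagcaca
Gcg, chr2:62483604-62483903, minus strand: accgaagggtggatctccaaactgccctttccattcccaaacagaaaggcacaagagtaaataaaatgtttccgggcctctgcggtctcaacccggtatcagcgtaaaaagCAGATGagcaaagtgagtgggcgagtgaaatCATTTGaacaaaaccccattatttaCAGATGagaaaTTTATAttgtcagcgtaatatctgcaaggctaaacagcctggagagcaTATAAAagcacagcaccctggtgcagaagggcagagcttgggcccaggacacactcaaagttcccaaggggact
The Pyy window held 1 E-box, whose first base lies at -36 with the start at 0, and 0 matches to each of the other 4 motifs. Only the exact letters were counted, and not near variants such as the tataag shortly after this E-box. A second annotated start of Pyy has an overlapping window (chr11:102107727-102108026) with the same E-box and no further match. The Gcg window held 3 E-boxes and 2 TATA boxes. The Ppy window held 1 Smad core and 1 TATA box.

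Across the 9 genes, at least 1 window of each held an E-box, which 72.3% of all 32817 annotated windows also hold. The Smad core was found in 3 of the 9 genes (Gast, Ghrl and Neurod1), against 49.6% of all windows. A gene is counted here if any of its windows held a match, while the percentages are shares of single windows. Ghrl has 4 windows, and not all of them held the Smad core. TATA boxes were found in Gcg, Chga and Gast, against 13.6% of all windows. The Smad palindrome and the AP-1 site were found in 0 of the 9 genes, and 0.213% and 5.2% of all windows hold them. No match overlapped another. These are matches of letters within a short window and not measured binding sites.

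Pyy was the only one of the 9 genes above background on any array. Its probe had signals of 1009, 1103 and 1585 on the TGF-β1 arrays, against 67.3, 65.6 and 66.0 on the untreated arrays. The detection p was listed as 0 on all 3 TGF-β1 arrays, and was 0.929, 0.930 and 0.810 on the untreated arrays. The 3 treated cultures were therefore all high, the 3 untreated cultures were all within the range of the control beads, and the groups did not overlap. The mean signal was 1232 ± 309 in treated cells and 66.3 ± 0.897 in untreated cells (SD, n = 3 each).

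**Figure D1:**
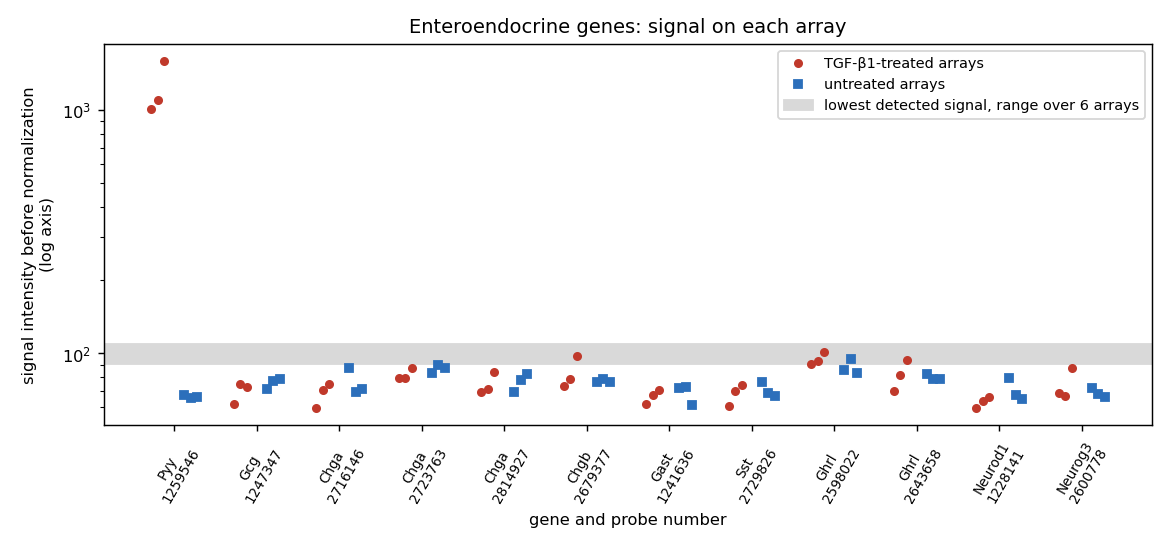
Signal intensity before normalization (log axis) of the 12 probes of the 9 enteroendocrine genes on each array, with TGF-β1-treated arrays as red circles, untreated arrays as blue squares and the range of the lowest detected signal of the 6 arrays in gray. Pyy after TGF-β1 lies at 1009 to 1585, and the signals of the other 8 genes lie between 59.7 and 101.8 on the TGF-β1 arrays and between 61.4 and 94.8 on the untreated arrays.

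After quantile normalization the log2 signal of Pyy was 10.21, 10.25 and 10.48 in treated cells and 6.02, 6.03 and 6.10 in untreated cells, a measured difference of 4.27. Because the untreated signal only bounds the level of the transcript, the change is also given as at least 12.9-fold, with the lowest signal detected on each untreated array in place of its measured signal. The treated culture with the highest Pyy signal, replicate 3, was also the one whose array had the highest mean signal in its group (519, against 406 and 439), and the 3 values lay closer together after normalization (10.31 ± 0.15, SD, n = 3). Without any 1 array, the log2 difference was between 4.16 and 4.34. In these bulk samples, a change in the number of cells that express Pyy and a change in the amount of its RNA per cell cannot be told apart.

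In the comparison as a whole, 17.3% of the 7725 genes tested were called higher after TGF-β1 and 18.4% lower (limma with Benjamini-Hochberg adjustment over all genes tested, adjusted p under 0.05), and groups did not overlap in 48.2%. Pyy, as 1 of the 9 genes, was among those called higher, which its choice presupposed.

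The other hormone genes were not above background in either group. Gcg, which encodes proglucagon, had signals of 61.9, 74.8 and 73.0 on the TGF-β1 arrays, against 71.2, 77.0 and 78.5 on the untreated arrays. Gast, the gene of gastrin, the acid-stimulating hormone of antral G cells, had 62.2, 67.4 and 70.7 on the TGF-β1 arrays and 72.0, 72.9 and 61.4 on the untreated arrays. The groups of both genes overlapped.

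Sst encodes somatostatin, the inhibitory peptide of D cells. Its signals were 61.1, 70.3 and 74.1 on the TGF-β1 arrays and 76.1, 68.8 and 66.7 on the untreated arrays. Ghrl encodes ghrelin, the appetite-stimulating peptide of the stomach, and had the lowest detection p of the 8 genes. Its probe ILMN_2598022 had signals of 90.2, 93.5 and 101.8 on the TGF-β1 arrays, with detection p of 0.0514, 0.0664 and 0.0789. On the untreated arrays the same probe had signals of 85.5, 94.8 and 83.5, with detection p of 0.272, 0.0952 and 0.133. The Ghrl probe thus stayed on the background side of 0.05 on all 6 arrays, with the TGF-β1 arrays nearest to it. Its log2 signals did not overlap after normalization (6.65, 6.59 and 6.56 in treated cells, 6.35, 6.51 and 6.47 in untreated cells), but those of the second Ghrl probe, ILMN_2643658, did (70.4, 81.5 and 94.2 before normalization on the TGF-β1 arrays, 82.3, 78.8 and 78.6 on the untreated arrays).

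Chga and Chgb encode chromogranins, the acidic proteins packed into dense-core granules and the usual markers of endocrine cells as a class. The 3 probes of Chga had signals of 59.7 to 86.8 on the TGF-β1 arrays and 69.5 to 89.6 on the untreated arrays, with no detection p under 0.0852. Chgb had 73.6, 78.8 and 98.0 on the TGF-β1 arrays, against 76.1, 78.6 and 76.0 on the untreated arrays. The highest of these Chgb signals, from treated replicate 3, had a detection p of 0.108.

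Neurog3 and Neurod1 encode the basic helix-loop-helix factors that start and carry forward endocrine differentiation. Neurog3 had signals of 69.0, 67.2 and 87.1 on the TGF-β1 arrays and 72.3, 68.1 and 66.3 on the untreated arrays. Neurod1 had 59.9, 63.7 and 66.3 on the TGF-β1 arrays, against 79.3, 67.5 and 64.8 on the untreated arrays. The log2 signals of Neurod1 did not overlap after normalization and were dimmer in treated cells (6.0, 6.0 and 5.97, against 6.25, 6.06 and 6.07 in untreated cells), all within the range of the control beads.

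**Figure D2:**
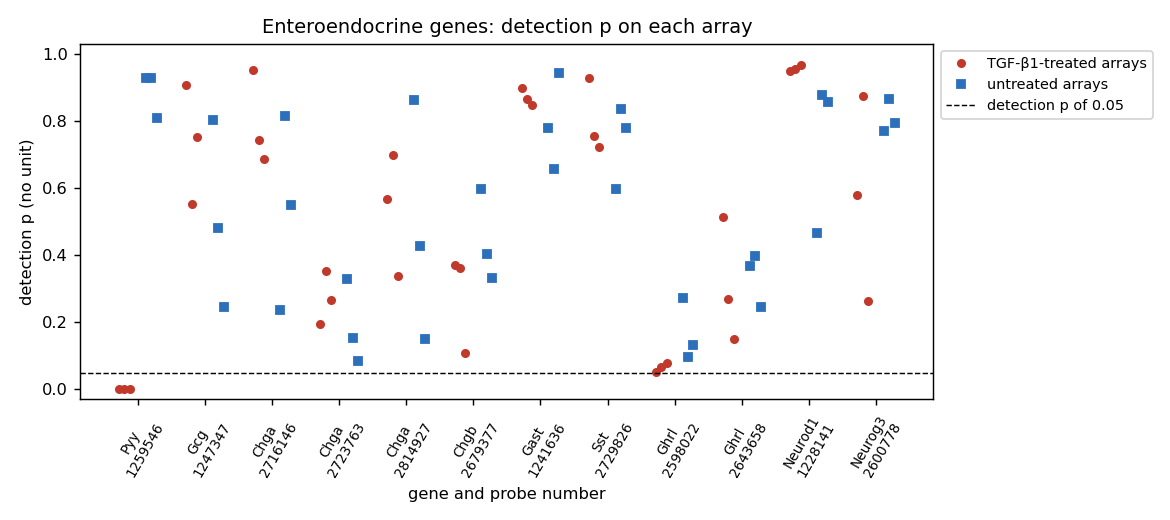
Detection p (no unit) of the 12 probes on each array, with TGF-β1-treated arrays as red circles, untreated arrays as blue squares and the level of 0.05 as a dashed line. Pyy on the 3 TGF-β1 arrays is at 0, and all other points lie above the line, the nearest being a Ghrl probe at 0.0514.

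Over the 11 probes of these 8 genes and the 6 arrays, 0 of 66 detection p were under 0.05 and 5 were under 0.1. The median detection p was 0.579 on the TGF-β1 arrays and 0.480 on the untreated arrays. The log2 differences lay between -0.14 and 0.16, and the groups did not overlap in 2 of the 11 probes, 1 brighter (Ghrl) and 1 dimmer (Neurod1). Among all 12292 probes above background on no array, groups did not overlap in 11.1%. A signal in the range of the control beads does not show that a transcript is absent, only that it was not detectable on these arrays.

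The detection pattern of Pyy, above background on all 3 TGF-β1 arrays and on no untreated array, was shared by 78 genes with Pyy included, or 1.01% of the genes tested. The opposite pattern was found in 149 genes (1.93%). By its lower bound Pyy was the first of the 78, while the other genes had a median bound of 1.26-fold and a highest bound of 6.24-fold. Since Pyy was selected on its difference in this same comparison, its place is given as a description only. The gene nearest to Pyy by Euclidean distance over its 6 log2 signals was Ctsw, the gene of the cysteine protease cathepsin W, at a distance of 1.9. Its log2 signals were 9.34, 9.36 and 9.09 in treated cells and 6.18, 6.23 and 6.34 in untreated cells. Thbs1, which encodes the matrix glycoprotein thrombospondin 1, came next at a distance of 3.09 and was at least 3.80-fold higher in treated cells. Gm5941, a predicted gene, and Ret, a receptor tyrosine kinase for ligands of the GDNF family, followed at 3.74 and 3.80. Uts2b, which encodes the vasoactive peptide urotensin 2B, was the fifth at 4.14. It had log2 signals of 8.12, 7.86 and 7.84 in treated cells and 6.19, 6.19 and 6.27 in untreated cells, at least 2.49-fold higher. The likeness is over 6 arrays in 2 groups, and the shared pattern was a condition for being listed.

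**Figure D3:**
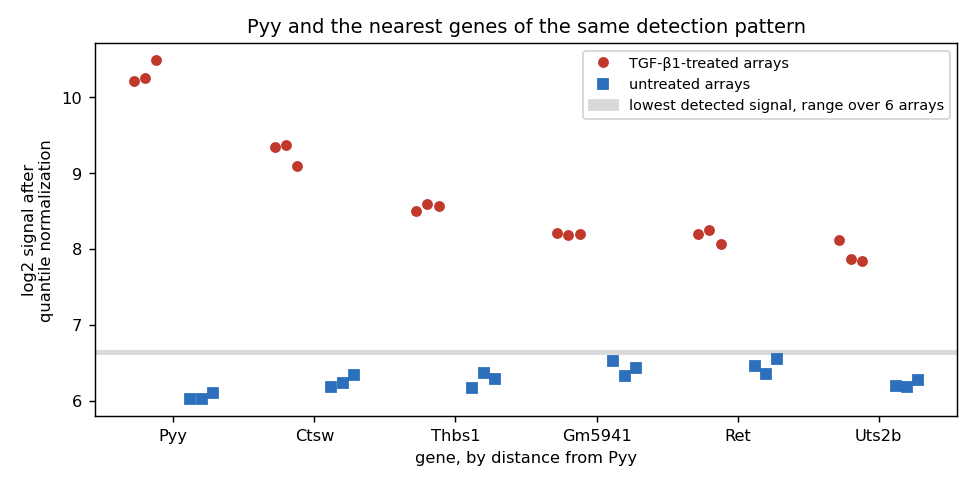
Log2 signal after quantile normalization of Pyy and the 5 genes of the same detection pattern nearest to it, ordered by distance, with TGF-β1-treated arrays as red circles, untreated arrays as blue squares and the lowest detected signals of the 6 arrays as a gray band. All treated values lie above the band and all untreated values below it, and Pyy has the highest treated values at 10.21 to 10.48.

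The relatives, receptors and processing enzymes of peptide YY did not share this pattern. Of 14 such genes, 9 were above background on no array (44.8% over all genes). They include Npy and Ppy, which encode the other PP-fold peptides neuropeptide Y and pancreatic polypeptide, and the receptors Npy1r, Npy2r, Npy5r and Npy6r. The receptor gene Npy4r, the dipeptidyl peptidase gene Dpp4 and the meprin gene Mep1a were above background on some arrays only and were not tested. The 2 genes tested were peptidases, and 0 of them passed the threshold of 0.05 (background 35.7% of all genes tested, in either direction). Xpnpep1, an aminopeptidase, had a log2 difference of 0.13 (adjusted p = 0.341 by limma), and Mep1b, the other meprin subunit, had 0.03 (adjusted p = 0.814 by limma). Without untreated replicate 3, Mep1a entered the test and was lower in treated cells by limma (log2 difference -0.49, adjusted p = 0.0126).

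Beside Pyy on chromosome 11, the 5 nearest protein-coding genes with a probe on each side were examined. Of these 10, 4 were above background on no array (44.8% over all genes), namely Mpp3, Cd300lg, Ppy and Nags. Of the 6 tested, 3 rose and 1 fell, where 35.7% of all genes tested were called in either direction. G6pc3, a glucose-6-phosphatase subunit, and Lsm12 rose by 0.62 (SE 0.12, adjusted p = 0.00380 by limma) and 0.58 (SE 0.089, adjusted p = 0.00123 by limma). Hdac5, a histone deacetylase, fell by 0.52 in log2 units (adjusted p = 0.00679 by limma). Tmem101 rose by 0.28 (adjusted p = 0.0376 by limma), and this call ended without any 1 array other than untreated replicate 3 (adjusted p of 0.0837, 0.118 and 0.0655 without treated replicate 1, 2 or 3, and 0.138 and 0.0921 without untreated replicate 1 or 2). The genes next to Pyy on either side that were tested, Mpp2 and Tmem101, had log2 differences of 0.24 (adjusted p = 0.0741 by limma) and 0.28, against a measured difference of 4.27 for Pyy.

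**Figure D4:**
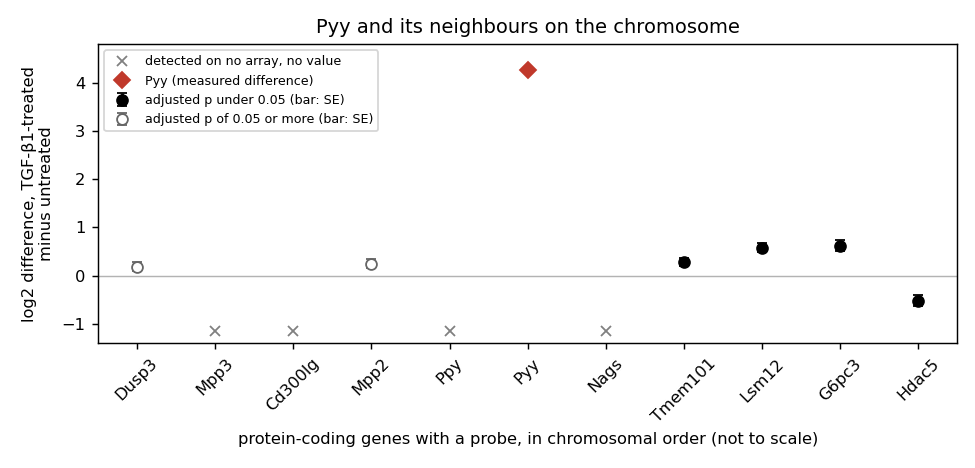
Log2 difference, TGF-β1-treated minus untreated, of Pyy (red diamond) and the 10 nearest protein-coding genes with a probe, in chromosomal order and not to scale. Filled circles passed an adjusted p of 0.05, open circles did not, bars are the SE, and crosses mark genes above background on no array, which have no value. The tested neighbours lie between -0.52 and 0.62, and Pyy lies at 4.27.

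The list of other peptide hormones of the gut and islet gave mixed values. It also holds peptides not particular to gut or islet, such as those of Edn1 and Igf2. Of 21 listed genes with a probe, 13 were above background on no array (44.8% over all genes), among them Cck (cholecystokinin), Nts (neurotensin), Insl5, a peptide of colonic L cells, and Tac1. Of the 6 tested, 1 rose, 3 fell and 2 did not pass, with a median log2 difference of -0.12, against 0.03 for all genes tested, of which 17.3% were called higher and 18.4% lower. Edn1, which encodes the vasoconstrictor endothelin 1, had signals of 479, 452 and 564 on the TGF-β1 arrays and 153, 140 and 147 on the untreated arrays, a log2 difference of 1.89 (SE 0.11, adjusted p = 4.43e-06 by limma). Guca2a, which encodes guanylin, the regulator of intestinal salt and water secretion, was not above background in treated cells, at 79.1, 89.6 and 86.0, and had 260.0, 263.3 and 258.8 in untreated cells. It entered the test through the untreated arrays only, and was at least 2.49-fold lower after TGF-β1 (adjusted p = 1.43e-05 by limma on the measured values).

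Smaller decreases were measured for Sct, the gene of secretin, by -0.32 (adjusted p = 0.0209 by limma), and for the growth factor gene Igf2, by -0.38 (adjusted p = 0.0344 by limma). The Igf2 call ended without treated replicate 1 (0.0728) or 3 (0.0911) and without untreated replicate 1 (0.105), 2 (0.0507) or 3 (0.0681). The Sct call ended without treated replicate 2 (0.0755) or untreated replicate 1 (0.0648) or 2 (0.0753). Gip, the incretin of K cells, had a log2 difference of 0.07 (adjusted p = 0.555 by limma) and Iapp, the gene of amylin, 0.12 (adjusted p = 0.454 by limma).

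The enzymes that cut hormone precursors are part of the same route. Pcsk1, the convertase of endocrine granules, and Scg5, a chaperone of the related convertase Pcsk2, were above background on no array, and Pcsk2 itself and Cpe had no probe paired with their symbol. Of 5 tested genes, 1 passed, against 35.7% of all genes tested. Furin, the convertase found in nearly all cells, had signals of 4809, 5407 and 5627 on the TGF-β1 arrays, against 3536, 3474 and 3135 on the untreated arrays (log2 difference 0.78, SE 0.089, adjusted p = 0.000230 by limma). The other convertase genes, Pcsk4, Pcsk7 and Mbtps1, had log2 differences of 0.11, -0.23 and -0.01 and did not pass.

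Of 29 genes for granins, granule membrane proteins and exocytosis with a probe, 16 were above background on no array (44.8% over all genes), including the granin genes Scg2 and Vgf and the vesicle fusion gene Snap25. Of the 11 tested, 2 rose, 6 fell and 3 did not pass, with a median log2 difference of -0.27. Over all genes tested, 35.7% were called, 17.3% higher and 18.4% lower. Rab27a, a small GTPase that docks granules at the membrane, had signals of 176, 185 and 193 on the TGF-β1 arrays, against 1036, 1048 and 1081 on the untreated arrays (log2 difference -2.38, SE 0.12, adjusted p = 2.41e-06 by limma). The GTPase genes Rab3b and Rab3a changed by -1.47 (adjusted p = 1.22e-05 by limma) and -0.55 (adjusted p = 0.00162 by limma). Ptprn, a membrane protein of dense-core granules, rose by 0.62 (adjusted p = 0.000589 by limma) and by 1.26 with neqc background correction, with signals of 134, 137 and 161 in treated cells and 102, 98.2 and 95.5 in untreated cells, of which 1 was above background.

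Named after their values were seen, the other 4 granule genes past the threshold were Bex2 at 0.46, Rab3d at -0.44, Sytl4, a binding partner of Rab27a, at -0.42, and Vamp2, a vesicle SNARE, at -0.27 (adjusted p = 0.0394 by limma). The Vamp2 call ended without treated replicate 1 (0.115) or 2 (0.121) and without untreated replicate 1 (0.134) or 2 (0.0915). Stx1a, the SNARE that pairs with it, had 0.30 (adjusted p = 0.0718 by limma) and passed without treated replicate 3 (0.0107).

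**Figure D5:**
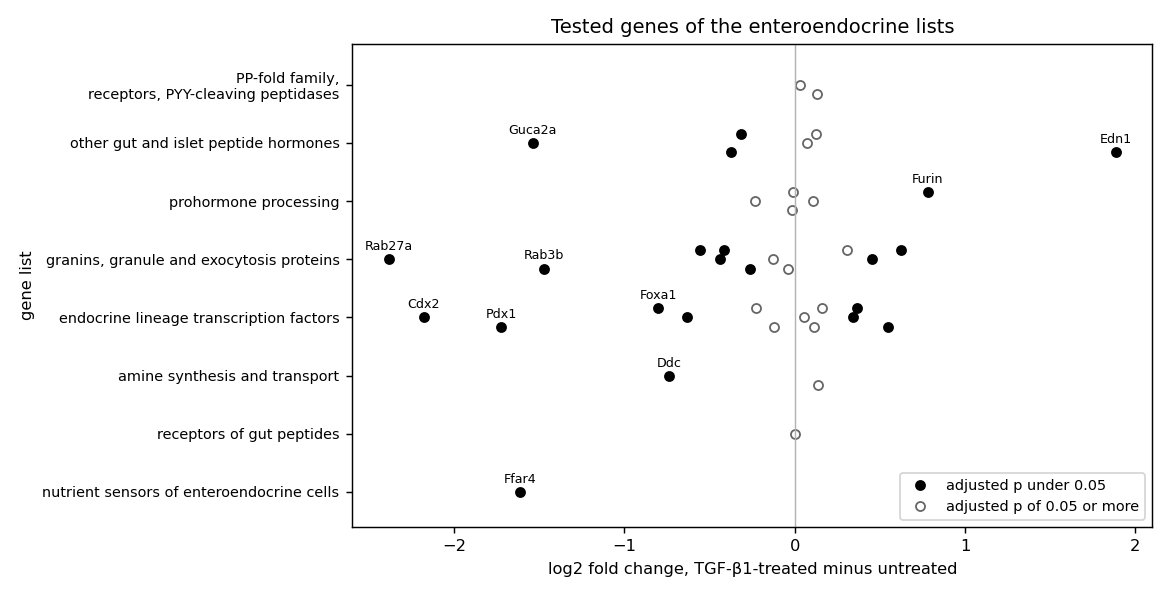
Log2 fold change, TGF-β1-treated minus untreated, of the tested genes in 8 lists drawn up around enteroendocrine cells, with 1 point per gene. Not all listed genes are particular to these cells. Filled points passed an adjusted p of 0.05 (limma) and open points did not, the furthest being Rab27a at -2.38 and Edn1 at 1.89.

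Of 30 transcription factors of the endocrine lineage with a probe, other than Neurog3 and Neurod1, 16 were above background on no array, where the share over all genes was 44.8%. Among them were Insm1, Pax4, Pax6, Nkx2-2, Isl1 and Rfx6, which take part in endocrine differentiation. Of the 12 tested, 3 rose, 4 fell and 5 did not pass (median log2 difference -0.03), against 17.3% of all genes tested called higher and 18.4% called lower. The 4 that fell are also factors of gut epithelium at large. So is Hnf4a, which was among those that did not pass (log2 difference 0.12, adjusted p = 0.599 by limma).

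Cdx2, the homeobox gene of intestinal identity, had signals of 463, 504 and 604 on the TGF-β1 arrays, against 2620, 2941 and 2258 on the untreated arrays (log2 difference -2.18, SE 0.083, adjusted p = 5.00e-07 by limma). Pdx1, a homeobox gene of the antrum, duodenum and pancreas, had 217, 217 and 280 on the TGF-β1 arrays and 893, 887 and 802 on the untreated arrays (-1.72, SE 0.083, adjusted p = 1.76e-06 by limma). The forkhead genes Foxa1 and Foxa2 changed by -0.80 (adjusted p = 0.000953 by limma) and -0.63 (adjusted p = 0.000616 by limma). All 3 treated cultures were below all 3 untreated cultures in Cdx2, Pdx1, Foxa1 and Foxa2, and groups did not overlap in 48.2% of all genes tested.

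The 3 that rose were named after their values were seen: Sox4 by 0.55 (adjusted p = 0.00683 by limma), Onecut2 by 0.36 (adjusted p = 0.0165 by limma) and Hes1, the Notch target that represses Neurog3, by 0.34 (adjusted p = 0.0483 by limma). Of these, Sox4 alone passed without treated replicate 1 or without untreated replicate 1. The Hes1 call ended without treated replicate 1 (0.150) or 2 (0.142) and without untreated replicate 1 (0.117) or 2 (0.166). The Onecut2 call ended without treated replicate 1 (0.0634) or 3 (0.0507) and without untreated replicate 1 (0.0519). Neurod2, a relative of Neurod1, was tested and had a log2 difference of 0.05 (adjusted p = 0.743 by limma).

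Among genes of amine hormones, Tph1 and Hdc, which make serotonin and histamine, and the vesicle transporters Slc18a1 and Slc18a2 were above background on no array. This held for 9 of the 11 genes in all, against 44.8% over all genes. Of the 2 tested, 1 passed, where 35.7% of all genes tested were called in either direction. Ddc, the decarboxylase shared by several amine routes, fell by 0.74 in log2 units (SE 0.096, adjusted p = 0.000508 by limma), and Gch1 did not pass (0.14, adjusted p = 0.314 by limma).

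The last lists hold receptors for gut peptides and the sensors by which enteroendocrine cells detect food. Of 23 receptor genes with a probe, 20 were above background on no array (44.8% over all genes), including all 5 somatostatin receptors, and the 1 tested, the ghrelin receptor gene Ghsr, had a log2 difference of 0.00 (adjusted p = 0.995 by limma). Of 21 sensor genes, 17 were above background on no array, against the same 44.8%. The 1 tested was Ffar4, the receptor for long-chain fatty acids, which had signals of 2729, 2581 and 3584 on the TGF-β1 arrays, against 11620, 9637 and 8256 on the untreated arrays (log2 difference -1.61, SE 0.10, adjusted p = 7.50e-06 by limma).

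The labelled cell type was checked against marker genes, and these values stand beside all results above. Of 9 gastric epithelial markers with a probe, 8 were tested and Sox2 was above background on no array. The summed signal of the 9 was 35440 to 41690 on the TGF-β1 arrays and 45800 to 50210 on the untreated arrays. Krt19 alone had signals before normalization of 3447, 4211 and 4559 on the TGF-β1 arrays, against 13381, 14294 and 12880 on the untreated arrays. Of the 8 tested, Krt19 (-1.59), Gata6 (-1.21) and Cldn18 (-0.43) fell and Krt18 (0.47) rose. Over all genes tested, 18.4% were called lower and 17.3% higher. The other 4 did not pass by limma: Muc1 (-0.28, adjusted p = 0.0670), Gata4 (-0.19, 0.195), Krt8 (-0.08, 0.591) and Cdh1 (-0.02, 0.966). Of 14 markers of parietal, chief, mucous and tuft cells, 8 were above background on no array (44.8% over all genes), among them Atp4b, Pgc, Muc5ac and Muc6. The 3 tested, Gkn2, Tff1 and Gkn1, fell, against 18.4% of all genes tested. Gkn2 and Gkn1 were above background in untreated cells only and entered the test through them, so their direction was largely set by the filter. Their bounds were at least 2.50-fold and 1.36-fold lower. The summed signal of that list was 1172 to 1233 on the TGF-β1 arrays, against 1584 to 1638 on the untreated arrays.

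Nerve cells share granule and peptide genes with endocrine cells. Of 11 neural markers, 7 were above background on no array (44.8% over all genes), including Elavl3, Elavl4, Nefl and Stmn2. The 3 tested rose, against 17.3% of all genes tested: Map2 by 1.16 (0.72 as the mean of its tested probes), Ncam1 by 0.62 and Uchl1 by 0.54 (adjusted p = 0.0190 by limma). Ncam1 was above background on 2 of the 3 untreated arrays and so entered the test through the treated arrays only. Tubb3 was above background on some arrays only and was not tested. The summed signal of the 11 was 2180 to 2431 on the TGF-β1 arrays and 1473 to 1490 on the untreated arrays. The Uchl1 call ended without treated replicate 1 (0.0681) or 2 (0.0639) and without untreated replicate 1 (0.0703) or 2 (0.0712). Of 9 fibroblast markers, 8 were above background on no array (44.8% over all genes). Col1a1 was above background in treated cells only, through which it entered the test, and was at least 2.13-fold higher in them. The summed signal of the 9 fibroblast markers was 803 to 834 on the TGF-β1 arrays, against 680 to 738 on the untreated arrays. Each summed signal also includes the genes of its list that were above background on no array. A sum gives most weight to bright genes, so a gene such as Krt19, Map2 or Col1a1 can carry much of its difference between groups. Immune markers (5 of 6 on no array) had sums of 489.6 to 515.2 in treated cells and 479.3 to 508.1 in untreated cells, and endothelial markers (4 of 6 on no array) had 461.6 to 512.0 in treated cells and 499.7 to 536.9 in untreated cells. The endothelial marker tested, Pecam1, was not above background in treated cells and entered the test through the untreated arrays only. By its bound it was at least 1.08-fold lower after TGF-β1 (measured log2 difference -0.39, adjusted p = 0.00998 by limma). The part of these markers in the values of Pyy and the other genes was not tested.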

How the data were processed

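The arrays were processed by the authors in the GenomeStudio Gene Expression module 1.9 (quantile and average normalization), per the study's methods. The values deposited before normalization are a signal intensity per probe, with no background subtracted, and the deposited detection p-values set each probe against negative control beads. The authors' normalized intensities, on a linear scale, were used only as an alternative (log2 correlation with the values here of at least 0.999996).

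Here the signals were quantile-normalized in limma 3.58.1 (R 4.3.3) and then put on the log2 scale. Testing a probe required a detection p under 0.05 on every array of at least 1 group. This left 11189 probes, the named ones covering 7725 genes, with each gene represented by its brightest tested probe. Probes were named from the platform table, in which 23978 of 25697 have 1 symbol. The groups were compared by lmFit and eBayes, with Benjamini-Hochberg adjustment across the 7725 genes. With 3 arrays a group, the smallest two-sided exact permutation p is 0.1. The study applied SAM (q under 0.05), which is an alternative here. A fold change against a group not above background is a lower bound, with each of its arrays raised to its lowest detected signal. Summed signals of a list add the normalized signals, on a linear scale, of the brightest probe of each gene, with genes above background on no array included.

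The members and lists were chosen with earlier results of these data known. Named are all members, up to 4 genes per list past the threshold with the largest change, defining genes not above background, the 5 nearest genes of the Pyy pattern and 10 neighbours. Listed genes whose symbol no probe carries were not analysed here. Promoter motifs were counted in RefSeq windows (GRCm38.p6). The number of arrays limits the precision. Alternatives were neqc background correction (offset 16), scaling to one mean signal, the authors' values, the mean of tested probes, no filter on detection, detection p under 0.01 required on all 6 arrays (the stricter filter), an intensity trend with a robust prior, the replicate number as a block, SAM, another floor for the bounds and leaving out each array. The sources used here name no slide or scan, so neither was tested as a batch.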

Additional observations from a re-analysis of the deposited data

How the results depend on the processing

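The log2 difference of Pyy was 5.80 after neqc background correction, 4.30 after scaling to one mean signal and 4.26 with the authors' values, and its bound was 16.7-fold against the median undetected signal of each array. Under the stricter filter Pyy was not tested, since it requires detection on all 6 arrays. No paired fit was used for the results above, since samples with the same replicate number did not deviate together (correlations of -0.67, 0.07 and -0.78 for numbers 1, 2 and 3), and only replicate 2 correlated best with its own number. Treated replicate 1 correlated best with untreated replicate 3 (array mean signals 406 and 435), and treated replicate 3 with untreated replicate 1 (519 and 519). None of the fits here models this crossed likeness, and its source was not tested. With the replicate number as a block, 1733 genes were called in place of 2755, and 2 genes of the list of other gut and islet hormones in place of 4. That hormone list had 2 calls by SAM, 1 under the stricter filter, where 2 of its genes were tested, and 2 to 3 when 1 array was left out (2 without untreated replicate 1 or 2, where Igf2 and Sct were lost). The list of PP-fold genes, receptors and peptidases had 3 calls with no detection filter and 0 to 1 with 1 array left out (1 without untreated replicate 3), against 0. Prohormone processing had 2 with scaling to one mean signal, against 1, the gain being Pcsk7 (adjusted p = 0.0248 by limma). Over all genes, leaving out 1 array gave 2056 to 2894 calls. Genes called higher numbered 865 by SAM and 750 under the block, against 1335, and 1 lineage factor rose, against 3, by SAM, under the block and without treated or untreated replicate 1. The other total counts of calls per list stayed within 1.5 times their value, and no called difference changed sign in any alternative. Calls of Igf2, Sct, Vamp2, Onecut2, Hes1, Uchl1, Tmem101, Sytl4, Krt18 and Cldn18 ended under the block, those of Igf2, Sct, Vamp2, Onecut2, Hes1, Tmem101 and Pecam1 by SAM, those of Igf2, Hes1 and Tmem101 with scaling to one mean signal, that of Hes1 with neqc (adjusted p = 0.0679 by limma), those of Hes1 (0.0617) and Vamp2 (0.0509) with no detection filter, and that of Vamp2 with the intensity trend (0.0599). Mpp2 passed with neqc (0.0406), with scaling (0.0475) and without untreated replicate 3 (0.0498), and Onecut3 with the mean of tested probes (0.0310). The cause of these changes was not tested. With neqc the log2 difference moved by over 1.5 times to -2.70 for Guca2a, -0.79 for Igf2, -0.62 for Sct, 1.26 for Ptprn, -0.78 for Sytl4, 0.88 for Sox4, 0.49 for Mpp2, -2.85 for Gkn2, -1.36 for Gkn1, 1.15 for Ncam1, 2.13 for Col1a1 and -0.79 for Pecam1, each with its direction kept. Genes near background are limited by signal: the 8 members other than Pyy have no order among them.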
